A study of Mus musculus with 17 samples.

Results

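Of 6179 autosomal H3.3 regions in Arid1a cKO pachytene spermatocytes, 340 (5.50%, 95% Wilson interval 4.96 to 6.10%) lay inside a gene but away from every transcript start. These distal gene-body regions were found by merging overlapping rows of the Arid1a cKO peak list and keeping each region whose centre was over 1 kb from every transcript start and inside a gene record of GENCODE M21 on mm10. The other autosomal regions comprised 5581 within 1 kb of a start and 258 that were distal and intergenic. The rule used position alone, so the fold, width and sequence of the regions did not choose them.

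H3.3 was profiled by CUT&RUN, in which an antibody tethers a nuclease to its target in intact cells and the fragments it cuts are read. Pachytene spermatocytes, meiotic prophase cells of the mouse testis, were isolated on a Sta-Put gravity gradient from testes pooled over several adult males. Arid1a WT gave 2 H3.3 libraries and Arid1a cKO gave 3, and the 12 ARID1A libraries of the series were not analysed here. Arid1a cKO males carried floxed Arid1a alleles and the Stra8-Cre transgene, which is active from spermatogonia onward. The males called Arid1a WT also carried floxed alleles (fl/fl or fl/+), with no Stra8-Cre in the genotype given. Excision was incomplete in this model, so that the purified cells include spermatocytes that escaped it. Sequencing depth is not given in the sources used here. Each genotype is represented by 1 combined peak list, so no region has a value per library, and neither a replicate error nor a test of the genotype could be had. The intervals below reflect counting error alone and take the regions as independent.

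H3.3 is a histone variant that is placed into chromatin outside of DNA replication. In many cells it marks promoters and enhancers with rapid nucleosome turnover, the bodies of transcribed genes and some repeated sequences, and in male meiosis it accumulates on the silenced sex chromosomes. ARID1A belongs to the BAF complex, which moves and evicts nucleosomes. CpG islands are stretches rich in GC and in the dinucleotide CpG, and are best known from promoters, although some lie within genes and in coding exons.

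The regions carried a pair of contrasting kinds of sequence, and examples of both are shown first. All are read on the plus strand of mm10 from the centre of the region, and were taken in order of fold within each kind, from regions that filled the window without untranslated sequence. The first examples, with CG dinucleotides in capitals, are mostly unique in the genome. Chst13, Pomc and C1qtnf4 show coding exons, and Arid1b and Lhx6 show introns.

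Chst13 chr6:90309380-90309579: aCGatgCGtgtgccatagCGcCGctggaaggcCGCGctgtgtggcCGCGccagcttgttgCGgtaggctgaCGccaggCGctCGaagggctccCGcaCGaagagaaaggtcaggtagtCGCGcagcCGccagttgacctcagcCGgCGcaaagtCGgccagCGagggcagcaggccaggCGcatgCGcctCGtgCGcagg
Pomc chr12:3960147-3960346: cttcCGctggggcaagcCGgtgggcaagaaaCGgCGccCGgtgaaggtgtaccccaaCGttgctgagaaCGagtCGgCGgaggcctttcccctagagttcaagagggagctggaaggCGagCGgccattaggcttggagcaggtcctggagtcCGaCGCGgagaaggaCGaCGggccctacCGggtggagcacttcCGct
C1qtnf4 chr2:90889736-90889935: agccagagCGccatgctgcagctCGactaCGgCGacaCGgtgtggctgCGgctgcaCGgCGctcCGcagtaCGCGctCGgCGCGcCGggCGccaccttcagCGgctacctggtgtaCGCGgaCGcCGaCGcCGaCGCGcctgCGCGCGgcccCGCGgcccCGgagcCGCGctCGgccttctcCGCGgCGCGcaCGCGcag
Arid1b chr17:5189849-5190048: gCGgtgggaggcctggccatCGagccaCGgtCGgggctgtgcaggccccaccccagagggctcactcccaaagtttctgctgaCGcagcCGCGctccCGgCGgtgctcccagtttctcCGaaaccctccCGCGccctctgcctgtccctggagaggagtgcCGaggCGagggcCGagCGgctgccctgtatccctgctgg
Lhx6 chr2:36091478-36091677: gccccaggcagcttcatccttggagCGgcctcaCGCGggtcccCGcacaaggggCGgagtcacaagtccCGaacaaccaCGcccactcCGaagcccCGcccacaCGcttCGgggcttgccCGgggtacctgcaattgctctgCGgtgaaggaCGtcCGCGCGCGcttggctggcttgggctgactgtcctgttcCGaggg

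The 200 bp at C1qtnf4 held 40 CG dinucleotides, that at Chst13 25, that at Lhx6 19, that at Pomc 18 and that at Arid1b 16. The next examples come from introns and are repeated in the genome. Capitals mark AAGATGGC or its reverse complement GCCATCTT, the core recognised by the transcription factor YY1. The A330008L17Rik, A530053G22Rik and Gm32511 sequences belong to 1 family of related regions, with the Gm32511 copy in the opposite orientation, and Naaladl2 and Tmem132d belong to another. The Naaladl2 window holds no YY1 core.

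A330008L17Rik chr8:99466659-99466888: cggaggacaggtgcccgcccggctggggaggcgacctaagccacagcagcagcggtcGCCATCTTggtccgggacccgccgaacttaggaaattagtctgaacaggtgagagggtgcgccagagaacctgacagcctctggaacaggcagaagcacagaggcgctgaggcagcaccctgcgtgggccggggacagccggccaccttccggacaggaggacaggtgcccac
A530053G22Rik chr6:60312604-60312833: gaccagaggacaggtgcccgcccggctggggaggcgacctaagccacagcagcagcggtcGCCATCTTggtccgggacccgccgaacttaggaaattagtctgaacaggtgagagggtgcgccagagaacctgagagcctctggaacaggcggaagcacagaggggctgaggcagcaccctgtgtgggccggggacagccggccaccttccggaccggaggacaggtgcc
Gm32511 chr9:71196356-71196585: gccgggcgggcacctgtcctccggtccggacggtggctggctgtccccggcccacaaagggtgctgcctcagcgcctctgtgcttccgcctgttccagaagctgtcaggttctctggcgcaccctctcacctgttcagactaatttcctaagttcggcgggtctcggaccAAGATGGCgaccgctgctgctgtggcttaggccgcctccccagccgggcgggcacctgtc
Naaladl2 chr3:24024203-24024432: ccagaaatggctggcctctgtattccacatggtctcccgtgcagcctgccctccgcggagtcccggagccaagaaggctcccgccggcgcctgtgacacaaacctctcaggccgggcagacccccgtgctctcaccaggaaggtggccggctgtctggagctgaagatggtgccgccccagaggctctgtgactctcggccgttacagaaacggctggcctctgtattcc
Tmem132d chr5:127875893-127876122: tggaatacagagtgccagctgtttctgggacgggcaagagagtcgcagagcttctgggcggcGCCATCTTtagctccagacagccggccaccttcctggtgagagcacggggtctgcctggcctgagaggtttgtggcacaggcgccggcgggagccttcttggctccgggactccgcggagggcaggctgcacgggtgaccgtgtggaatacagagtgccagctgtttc

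As listed, the distal gene-body regions were short and modestly enriched. Their width ran from 1 to 1527 bp with a median of 288 bp, and 16 regions were under 100 bp. Whether the authors' overlap of replicates left whole peaks or pieces of them is not stated. A width may therefore be that of a piece, while fold and q may belong to a longer peak. Their fold over IgG, which is the highest of the rows merged into a region, ran from 2.80 to 7.96 with a median of 3.19. A fold of exactly 2.90612 was shared by 75 regions (22.1%), the commonest value in the set and also its first quartile. It was found in 7.06% of regions within 1 kb of a start and in 16.3% of distal intergenic regions. Among the distal gene-body regions it was in 30.1% (23.5 to 37.7%) of those in coding exons and 13.9% (9.38 to 20.2%) of those in introns. Regions within 1 kb of a start had a median width of 436 bp and a median fold of 4.05, and distal intergenic regions had medians of 282 bp and 3.27. A fold of 5 or more was found in 12 distal gene-body regions (3.53%, 2.03 to 6.07%) and in 23.5% (22.4 to 24.7%) of regions near a start. The median -log10 q was 2.36, against 3.83 near starts. At least 2 overlapping rows made up 56.5% (51.2 to 61.6%) of the distal gene-body regions, against 89.7% (88.8 to 90.4%) of the regions near starts. How rows relate to libraries is not stated, so a number of rows is no count of replicates. Among the 340 regions fold was only weakly ordered with width (Spearman rho = 0.21), CpG content (0.19), GC content (0.18) and distance to a start (-0.07).

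Distance to the nearest transcript start had a median of 4318 bp and reached 335139 bp. In all, 97 regions lay at 1 to 2 kb, 93 at 2 to 5 kb, 62 at 5 to 10 kb and 88 beyond that. Median fold was 3.3, 3.10, 3.15 and 3.24 in these classes, so the level showed no steady change with distance. Those just inside the limit were in a coding exon of C530008M17Rik (1001 bp, fold 3.60), an intron of Elovl6 (1004 bp, fold 2.91) and an intron of Icam5 (1005 bp, fold 2.95). Those just outside were at Ecm1 (991 bp, fold 3.58), Espl1 (983 bp, fold 3.52) and B930059L03Rik (975 bp, fold 8.26). The nearest start lay upstream, on its own strand, of 69.1% (64 to 73.8%) of the regions. For 194 of 340 it was an upstream start of the host gene itself. A start of the RefSeq annotation lay within 1 kb of 28 regions (8.24%, 5.76 to 11.6%), and a curated RefSeq start within 1 kb of 10.

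**Figure D1:**
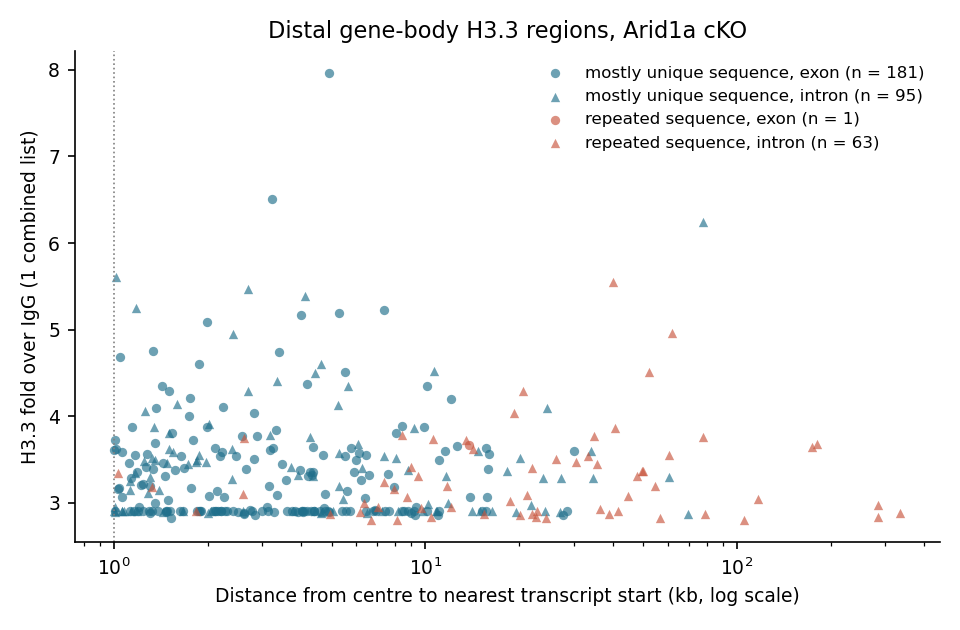
Fold of H3.3 over IgG against the distance from the region centre to the nearest transcript start (log scale), 1 point per distal gene-body region. Circles are exonic and triangles intronic, colours separate mostly unique from repeated sequence, and the dotted line is the limit of 1 kb; regions beyond 100 kb were all repeated and intronic, and 75 points share the fold of 2.90612.

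Coding exons held far more of these regions than their length would give. The centre lay in a coding exon in 156 regions, in an untranslated exon in 21, in another exon in 5 and in an intron in 158. Exons together held 53.5% (48.2 to 58.8%) of the centres, although only 7.71% of the 1048 Mb of gene-record sequence over 1 kb from every start is exonic, a ratio of 6.94. For coding exons alone the shares were 45.9% (40.7 to 51.2%) of centres and 2.29% of bases, a ratio of 20.0. By the longest transcript of the host, 90 centres were in the last exon, 13 in the first exon and 55 in the first intron. Along the host record the median position was 63.9% of its length from the start, with 114 regions in the last 20% and 47 in the first 20%. The rule removes centres within 1 kb of every start, which empties the first part of short records. Positions and last exons were not counted for eligible bases, so no preference can be read from these counts. Exonic shares also varied with distance, from 74.2% (64.5 to 82.0%) at 2 to 5 kb to 21.6% (14.3 to 31.3%) beyond 10 kb. Beyond 10 kb the median share of repeat-masked bases in a region was 96.7%. The exonic share of eligible bases was not measured by distance, so this fall has no background.

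**Figure D2:**
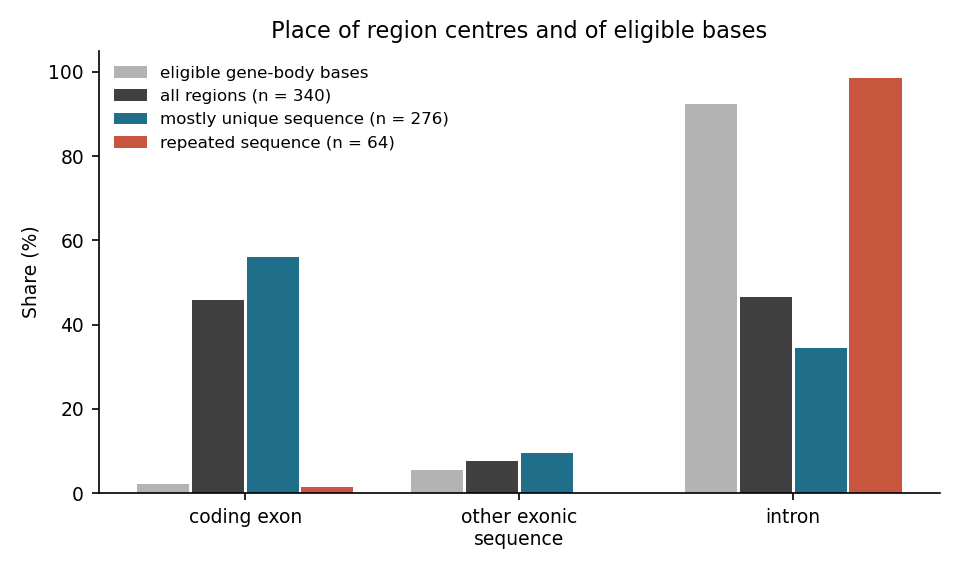
Share of region centres, and of eligible gene-body bases (inside a gene record and over 1 kb from every start), in coding exons, other exonic sequence and introns. Bars start at 0; coding exons hold 45.9% of the 340 regions and 2.29% of bases, and the repeated regions are intronic with 1 exception.

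The regions repeated in the genome were intronic with 1 exception. Every 50-base word of the central 300 bp was counted on both strands of the mouse chromosomes, and a region was called mostly unique if at least 50% of its words occurred once. This division was made after the sequences had been seen. It gave 276 mostly unique regions and 64 repeated ones. Of the mostly unique regions, 155 were in coding exons, 21 in untranslated exons, 5 in other exons and 95 in introns. Of the repeated regions, 63 were in introns and 1 was in a coding exon, of Dnajb6, a chaperone. Median distance to a start was 3255.5 bp for mostly unique and 22008 bp for repeated regions. Median fold was close, 3.21 (2.83 to 7.96) and 3.17 (2.80 to 5.55), and so was median width, 284 and 311 bp. The words of the repeated regions had a median of 793 copies. Distal intergenic regions were mostly unique in 43.4% (37.5 to 49.5%) of cases, against 81.2% (76.7 to 85.0%) of the distal gene-body regions. How reads from near-identical copies were placed cannot be read from the list, so the exact copy is uncertain for the 64 repeated regions.

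The highest folds fell at single sites of unrelated genes. The first was in an exon of the noncoding gene E030044B06Rik (chr19:40873071-40873500, 430 bp, fold 7.96), 4900 bp from a start. Sf3b5, a single-exon gene for a small subunit of the SF3b splicing complex, had its region in what GENCODE gives as untranslated sequence, 3220 bp from the nearest GENCODE start (chr10:13008354-13008771, fold 6.51). A curated RefSeq start lay only 113 bp from its centre. Arid1b encodes the paralogue of ARID1A in the BAF complex. Its region was in intron 4 of a transcript of 20 exons, 77839 bp from the nearest start (chr17:5189796-5190102, 307 bp, fold 6.24), and had a GC content of 71.7%. The Tsc22d1 region (fold 5.61) lay only 1016 bp from a start and 1754 bp from another H3.3 region. Lhx6, a LIM homeobox gene of interneuron development, had a region in intron 6 (chr2:36091415-36091740, fold 5.47).

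Coding sequence supplied 3 of the 12 highest. They were in the last exon of Chst13 (fold 5.23), a chondroitin sulfotransferase gene, in the last exon of Pomc (chr12:3960028-3960466, fold 5.20), which encodes the precursor of adrenocorticotropic hormone, and in the last exon of C1qtnf4 (chr2:90889326-90890346, 1021 bp, fold 5.17), which encodes a secreted protein. An untranslated exon of Nup160 (fold 5.08), a nuclear pore gene, and introns of Gm49482 (fold 5.39) and Gm20517 (fold 5.25) were also among them. The intron of A330008L17Rik (fold 5.55) was the only repeated region of the 12.

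The widest regions were in introns of Bicral (1527 bp, fold 3.14, and 682 bp from a RefSeq start), which encodes a subunit of a BAF-related complex, of Cbarp (1418 bp, fold 3.28) and of Clec11a (1242 bp, fold 3.14), in a coding exon of Cilp2 (1360 bp, fold 3.63) and in a repeated intron of the pseudogene Gm17177 (1167 bp, fold 3.31). Width and fold were thus not highest in the same regions. The regions farthest from a start were in introns of long genes. Ctnna3 (335139 bp, fold 2.88), Gpc5 (284586 bp, fold 2.98), Astn2 (282947 bp, fold 2.84), Dlgap1 (181289 bp, fold 3.68) and Sorcs1 (174173 bp, fold 3.64), which act in cell adhesion, signalling or at synapses, all held repeated sequence.

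Most distal gene-body regions resembled CpG islands. Sequence was called island-like where GC content was at least 50% and observed over expected CpG at least 0.6 across the region. Of the 340 regions, 203 met this (59.7%, 54.4 to 64.8%), as did 96.2% (95.6 to 96.7%) of regions near a start and 54.3% (48.2 to 60.2%) of distal intergenic regions. Over the central 300 bp alone, 58.2% (52.9 to 63.4%) of the distal gene-body regions met it. Only 0.393% of 300-bp windows of eligible gene-body sequence did. Median GC content was 67.1% and median observed over expected CpG 0.66, against 69.4% and 0.87 near starts. In coding exons 65.4% (57.6 to 72.4%) were island-like and in introns 53.8% (46.0 to 61.4%). Median fold was 3.32 in the 203 island-like regions and 2.95 in the other 137, whose median GC content was still 65.3%.

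**Figure D3:**
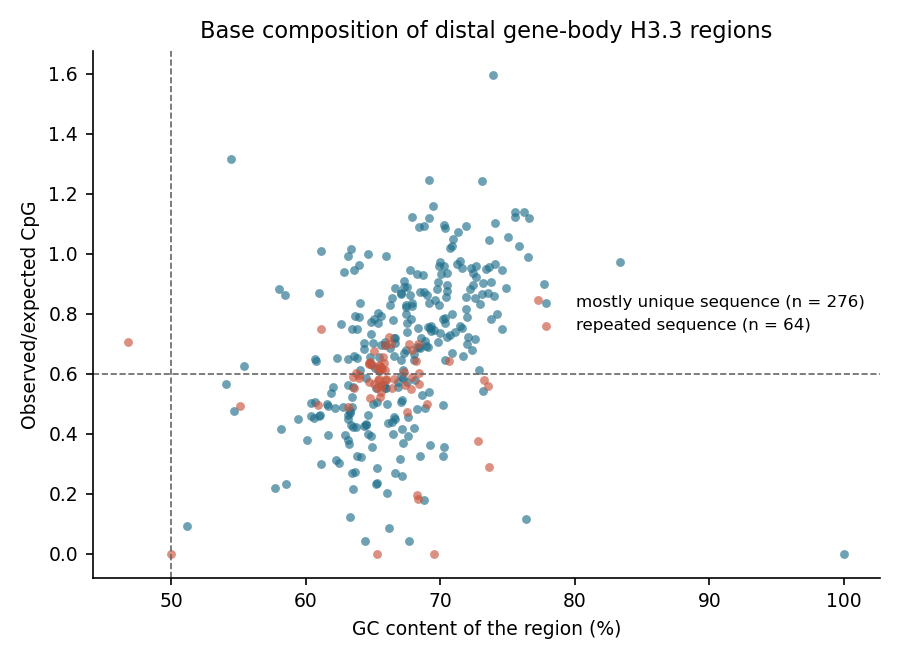
GC content (%) against observed over expected CpG for each distal gene-body region, with dashed lines at the limits of 50% and 0.6 for island-like sequence. The mostly unique regions rise to high CpG values with GC, and the repeated regions gather near 65.7% GC and a CpG ratio of 0.59, beside the limit.

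Exons exceeded introns within each broad class of base composition. Composition was not matched within a class. Of the 3457018 windows of 300 bp, 678 overlapped a distal gene-body H3.3 region, a background of 0.0196%. A region can overlap several adjacent windows, so windows are not independent and their intervals are too narrow. The share was 4.51% (3.95 to 5.14%) of island-like exonic windows and 1.46% (1.24 to 1.74%) of island-like intronic windows. With GC content of at least 65%, it was 11.1% (9.70 to 12.7%) of exonic and 4.78% (4.00 to 5.70%) of intronic windows. Outside island-like sequence it was 0.0527% of exonic and 0.00637% of intronic windows. So most GC-rich gene-body windows of either kind held no region. With windows masked as repeats over 50% or more of their length left out, the island-like shares were 4.64% (4.07 to 5.30%) in exons and 1.73% (1.38 to 2.16%) in introns.

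**Figure D4:**
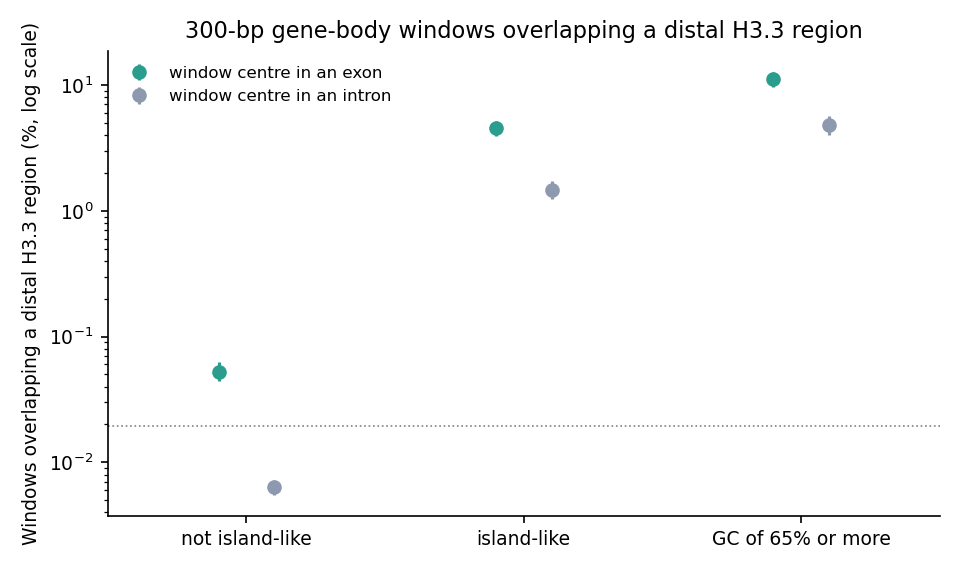
Share of 300-bp gene-body windows (log scale) that overlapped a distal gene-body H3.3 region, with 95% Wilson intervals, for windows centred in exons and introns in 3 classes of base composition. The dotted line is the share over all windows, 0.0196%, and the exonic share is above the intronic one in each class.

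Short motifs separated the mostly unique from the repeated regions. The letters were searched on both strands in the central 300 bp, and a match is a description of the letters and not of binding. The GC box GGGCGG, bound by SP and KLF factors, was in 54.4% (49.1 to 59.6%) of the distal gene-body regions, in 75.2% (74.0 to 76.3%) of those near a start and in 36.0% of 31365 RefSeq promoters of the same length (GRCm38.p6). It was in 2.86% of all gene-body windows but in 49.5% (47.9 to 51.0%) of windows with at least 65% GC. Among the regions it was in 50.0% (44.1 to 55.9%) of mostly unique and 73.4% (61.5 to 82.7%) of repeated ones. Here and below, the windows were not filtered for repeated sequence, so they are no matched background for the mostly unique regions. The letters TGACG of the cyclic AMP response element, contained in its full form TGACGTCA, was in 26.4% (21.6 to 32.0%) of mostly unique and 1.56% (0.276 to 8.33%) of repeated regions. Its share was 21% in RefSeq promoters, 8.09% in all windows and 12.7% (11.8 to 13.8%) in windows with at least 65% GC. With a -log10 q of at least 3 and 5, the share over all distal gene-body regions went from 21.8% to 35.3% and 52.6%. The last value is of 19 regions and has an interval of 31.7 to 72.7%. The full form TGACGTCA was in only 1 of the 340 regions (0.294%, 0.0519 to 1.65%). Within 1 kb of a start it was in 1.76% (1.44 to 2.14%) of regions. The TATA letters TATAAA were in 0.294% of the regions, 13.6% of RefSeq promoters and 25.7% of all windows, but in only 0.365% of windows with at least 65% GC. The E-box CACGTG was in 7.94% (5.51 to 11.3%) of the regions, 7.14% of promoters and 4.94% (4.32 to 5.64%) of windows with at least 65% GC. For CCAAT the shares were 15.9% (12.4 to 20.1%) of the regions, 37.3% of promoters, 37.5% of all windows and 9.44% (8.58 to 10.4%) of windows with at least 65% GC.

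The YY1 core AAGATGGC had the opposite pattern to the TGACG letters and, like the GC box, was commoner in repeated regions. It was in 48 of 64 repeated regions (75%, 63.2 to 84.0%) and in 5 of 276 mostly unique ones (1.81%, 0.776 to 4.17%). It was in 50.4% (44.3 to 56.4%) of distal intergenic regions, 5.34% near starts, 2.74% of RefSeq promoters, 2.44% of all windows and 17.2% (16.1 to 18.4%) of windows with at least 65% GC. The ETS letters CCGGAA were in 50.0% (38.1 to 61.9%) of repeated and 14.1% (10.5 to 18.7%) of mostly unique regions, against 15.1% of RefSeq promoters, 2.28% of all windows and 18% (16.8 to 19.2%) of windows with at least 65% GC. Most repeated regions are related copies, as described below, so they are not independent and their intervals are too narrow.

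**Figure D5:**
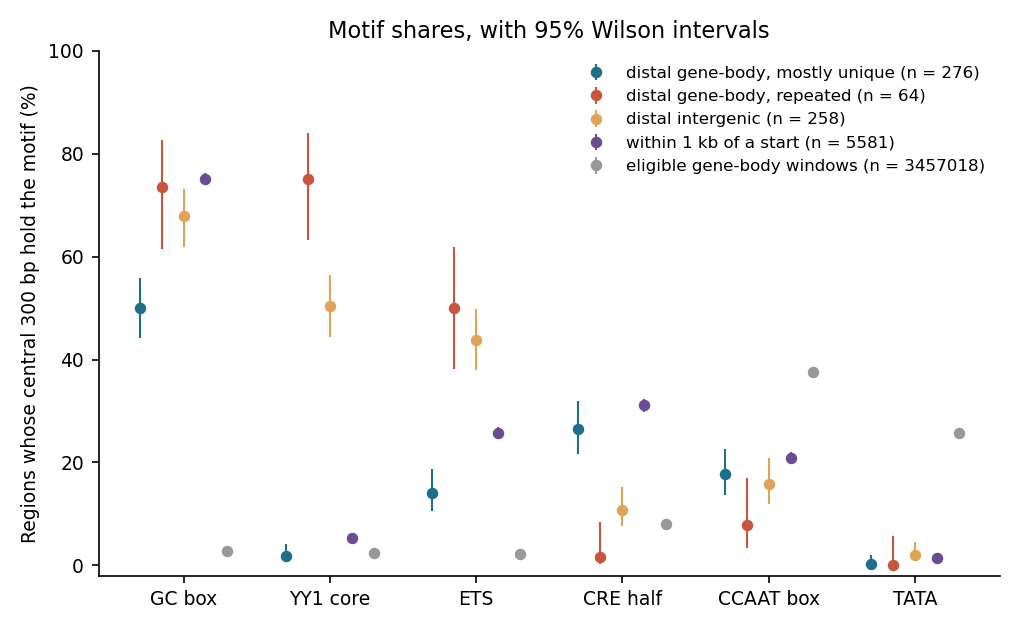
Share of regions whose central 300 bp held each motif, with 95% Wilson intervals, for mostly unique and repeated distal gene-body regions, distal intergenic regions, regions within 1 kb of a start and all eligible gene-body windows. The YY1 core is at 75% in repeated and 1.81% in mostly unique regions.

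Repeated regions fell largely into 1 family. Distal regions were joined where they shared at least 10% of the 31-base words of the smaller one. The largest family had 164 regions, of which 45 were intronic distal gene-body regions and 119 were intergenic. Its 45 gene-body members had a median of 943 copies per 50-base word, a median fold of 3.24 (2.80 to 5.55) and a median GC content of 65.5%. The YY1 core was in 41 of the 45, the GC box in 36 and the ETS letters in 31. A tandem period was found in 16 of them, with a median of 212 bp (212 to 214 bp). A second family had 24 regions, 9 of them intronic gene-body regions, with the YY1 core in 7 of 9, the GC box in 9 and the ETS letters in 0. A period of 205 to 206 bp was found in 2 of these 9. In all, 59 of the distal gene-body regions belonged to a family of at least 2. Their hosts included Zeb1, Pde4d, Sema6d and Kcnj3 in the larger family and Pcdh15, Gpc5 and Ctnna3 in the other. Family names are not given because no table of named repeats was used.

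Repeat masking gave a similar division. Masked bases made up 21.9% of the regions' 116 kb, below the 28.7% of eligible gene-body bases. Over 50% of the bases were masked in 60 of 64 repeated regions (93.8%, 85.0 to 97.5%) and in 5 of 276 mostly unique ones (1.81%).

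Host genes were many and each held few regions. A protein-coding host was found for 317 of 340 regions, and 23 had none. They named 320 protein-coding genes, which is 1.61% of the 19909 autosomal protein-coding genes with sequence over 1 kb from every start. Kdm6b, which encodes a histone demethylase, held 3 regions. They lay in its untranslated last exon (chr11:69399314-69400008, 695 bp, fold 4.34), in a coding exon (chr11:69406298-69406545, 248 bp, fold 2.90) and in intron 1 (chr11:69409266-69409563, 298 bp, fold 3.75). The last of these was 214 bp from a RefSeq start that is not curated. A further 9 host records held 2 each. The record Gm20388 held 6, but it spans 4.43 Mb over many genes, and each of the 6 also lay in another gene, among them Foxc2 (fold 3.42), Zcchc14 (3.55, and 198 bp from a curated RefSeq start) and Zfpm1 (2.91). Other H3.3 regions were usually far away, with a median distance of 37.9 kb to the next region and 20 regions within 2 kb of one.

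A minority of the hosts also carried H3.3 at their own start. Of the 320 host genes, 124 had an Arid1a cKO region within 1 kb of 1 of their own starts (38.8%, 33.6 to 44.2%), against 29.3% of all 20807 autosomal protein-coding genes. The share was 32.3% (31.6 to 33.0%) among genes of 5 kb or more. It was 40.3% (34.6 to 46.3%) for hosts of mostly unique regions, 30.4% (24.0 to 37.7%) for hosts of mostly unique island-like regions and 30.8% (19.9 to 44.3%) for hosts of repeated regions. Median host length was 27.1 kb, against 19 kb for genes with eligible sequence. It was 20.1 kb for hosts of mostly unique regions and 198 kb for the 52 hosts of repeated regions. The 19 distal gene-body regions with a -log10 q of at least 5 were island-like in 17 cases. For 4 of them the host had a region at its own start, namely Arid1b, Tsc22d1, Wbp11 and Rara, the gene of a retinoic acid receptor. A protein-coding host without one was found for 12, and 3 had no protein-coding host. These 19 were singled out after their values had been seen.

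The fixed lists of meiotic prophase and spermiogenesis genes held no host. None of 61 meiotic prophase genes with eligible sequence (0%, up to 5.92%) and none of 54 spermiogenesis genes (up to 6.64%) held a distal region. Both upper limits lie above the background of 1.61%, so lists of this size could not show a lower share. A region at a start was found for 57.4% (44.9 to 69.0%) and 29.6% (19 to 42.8%) of them, beside 30.0% (29.3 to 30.6%) of all genes with eligible sequence. The lists do not cover every germ cell gene, and Eqtn, which encodes an acrosomal protein, and Adcy10, which encodes the soluble adenylyl cyclase of sperm, held repeated regions. These genes were named after the hosts had been read. No host was among 42 imprinted genes (up to 8.38%). Of 87 chromatin regulators 2 were hosts, Arid1b and Kdm6b (2.30%, 0.633 to 8.00%). Of 38 markers of Sertoli, Leydig and peritubular cells, the somatic cells of the testis, 1 was a host. It was Amh, the gene of anti-Müllerian hormone, with a region in coding exon 5 (chr10:80807023-80807441, fold 3.88).

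Zinc finger genes were represented by 11 hosts of 459 (2.40%, 1.34 to 4.24%), an interval that spans the background. Coding exons held the regions of Zfp316 (fold 4.03), Zfp503 (3.44), Zfp574 (3.36) and Zfp771 (3.32), an untranslated exon that of Zkscan7 (4.75, and 172 bp from a RefSeq start) and an intron that of Zfp64 (3.52). Of these 11 genes, 6 also had a region at a start. Other transcription factor families were counted only after the host names had been read, so these counts are a description. Forkhead genes gave 6 hosts of 40 (15%, 7.06 to 29.1%), namely Foxa1, Foxc1, Foxc2, Foxd4, Foxl2 and Foxp4. Prdm genes gave 3 of 14 (21.4%, 7.57 to 47.6%), Prdm2, Prdm12 and Prdm13. Sox4 and Sox12 were 2 hosts of 18 Sox genes (11.1%, 3.10 to 32.8%), and Nkx2-4 was 1 of 14 Nkx genes (7.14%, 1.27 to 31.5%). The share over all genes was 1.61%, and since the families were picked for their hosts no difference from it can be read.

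In Arid1a WT the list held 4 autosomal regions, and 2 of them met the same rule, in introns of Abcc9 (fold 6.01) and Alg9 (fold 9.05). Both had an observed over expected CpG of 0 and a GC content of 52.9% and 53.8%. None of the 340 Arid1a cKO regions overlapped a WT region. With only 4 autosomal WT regions hardly any overlap was possible. Overlap was not counted for the other autosomal Arid1a cKO regions, so its absence cannot be read as a trait of this set. The lists came from different numbers of libraries, and the part of this in the difference was not tested.

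Across the autosomes the distal gene-body regions ranged from 0.162 per Mb of eligible sequence on chromosome 1 (13 regions) to 0.556 per Mb on chromosome 11 (31 regions). Chromosome 7 had the most, 34 regions or 0.537 per Mb. Of the 340 regions, 6 shared a peak name in the list with another region, and for 2 of them that region lay within 1 kb of a start.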

How the data were processed

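H3.3 CUT&RUN on purified, frozen pachytene spermatocytes gave 2 Arid1a WT and 3 Arid1a cKO libraries, grouped by sample title. Whether these came from separate cell preparations is not stated. The authors trimmed reads with Trim Galore, aligned them to mm10 with Bowtie2, removed duplicates with Picard and called broad peaks with MACS2 against a rabbit IgG library of another study. That control came from juvenile testes, whereas the H3.3 cells came from adults, and the H3.3 antibody was a mouse monoclonal. The effect of these differences on fold and q was not tested. The authors overlapped the replicates' peaks into 1 list per genotype, so library depth is unknown and the spread between replicates cannot be had. Each deposited row gives a fold (ratio) of H3.3 over IgG averaged over the peak, which the authors' peak caller computed. The deposited -log10 q measures each peak against IgG, and the deposited score is a whole-number form of it that was not analysed further.

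Rows overlapping by 1 bp were merged, with the highest fold and -log10 q kept. Regions were annotated by their centre with GENCODE M21 (134417 autosomal transcripts) and RefSeq starts, and sequence was read from GRCm38.p6, which shares the coordinates of mm10. Shares carry 95% Wilson intervals, and no hypothesis test was run. Expected CpG is the product of the C and G counts over length. Of 12 motifs searched, those not named in the results were the NRF1, MYB, CTCF and RFX letters. The functions were tested on simulated data. Unmatched per-sample columns numbered 0.

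The regions, motifs and gene lists were chosen with earlier results of these data known. Named regions were the 12 with the highest fold, the 5 widest, the 5 farthest from a start, the 3 nearest each side of the 1 kb limit, those of hosts with at least 3 regions and up to 6 hosts per gene list. Alternatives were rows in place of regions, a -log10 q of at least 3 or 5, at least 2 rows, the distal limit, the annotation and the sequence criteria. Work used Python 3.11.15, numpy 2.4.6, pandas 2.3.3, scipy 1.17.1, numba 0.67.0, networkx 3.6.1 and matplotlib 3.10.9.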

Additional observations from a re-analysis of the deposited data

How the results depend on the processing

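No paired analysis was possible because the list of a genotype combines its replicates in 1 column, and for the same reason no library could be left out. A share or median was taken as changed where it left the interval of the reported value (for masked bases, with regions as the unit), and a count where it changed over 1.5 times. The count of 340 regions became 535 with deposited rows, 102 and 19 with -log10 q of at least 3 and 5, 192 with at least 2 rows and 150 beyond 5 kb, and their share of autosomal regions 4.65%, 2.56%, 1.10%, 3.60% and 2.43% (3.93% beyond 2 kb). With -log10 q of at least 3, median width was 320.5 bp, fold 3.74, distance 3364 bp, island-like share 68.6%, masked share 13.4% and YY1 core 8.82%. With at least 5, width was 366 bp, fold 5.17, exonic share 47.4%, island-like share 89.5%, masked share 6.98%, GC box 68.4% and YY1 core 5.26%. Regions of at least 2 rows had a width of 329.5 bp, a distance of 3364 bp, an island-like share of 66.1% and the YY1 core in 12%. Beyond 2 kb, distance was 6788 bp, masked share 27.3%, YY1 core 20.6% and the share near a RefSeq start 3.70%. The share of hosts with a region at their own start fell to 22.8%, 0% and 31.7% with -log10 q of at least 3, at least 5 and at least 2 rows, while that of all protein-coding genes fell to 20.7%, 9.51% and 26.9%, since starts were filtered too. The exonic share was 59.4% by any overlap, and distance 5189 bp to protein-coding starts. With repeated regions left out, chosen after seeing the data, distance was 3255.5 bp, masked share 5.82% and exonic share 65.6%. Fewer regions and a longer limit follow from the alternatives themselves, and for the rest the cause was not tested. Among these results 39 other shares and medians stayed within the interval and 5 other counts of regions within 1.5 times. The TGACG share was 35.3% and 52.6% with -log10 q of at least 3 and 5. Unknown depth and sequence copies limit all counts.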
